A study of Mus musculus with 4 samples.

Results

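Atf4, Ddit3, Trib3, Asns, Chac1, Ddit4 and Sesn2 are 7 genes of the integrated stress response (ISR), chosen by symbol out of the 32285 genes counted in single mouse embryonic stem cells (mESCs). All 7 were present in the count matrix. Their levels are described per library, per expression cluster and per class of cell barcode, with most room given to barcodes whose RNA was rich in mitochondrial transcripts.

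The ISR is a signalling pathway in which kinases that sense amino acid shortage, misfolded protein, viral RNA or haem and mitochondrial defects phosphorylate the translation factor eIF2. Bulk protein synthesis then slows while the mRNA of the transcription factor ATF4 is translated more, and ATF4 raises genes of amino acid synthesis, uptake and tRNA charging. In cultured cells it answers shortage of amino acids and misfolding of proteins in the endoplasmic reticulum (ER).

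The study profiled wild-type (WT) mESCs of the male line E14tg2a.4 and a gene-trap line made from it, Srrm2 hKO, which carries a heterozygous truncation of the splicing factor gene Srrm2, with 2 replicates of each. The mutant is a single gene-trap line (SIGTR CG0630), so what is particular to that clone cannot be told apart from the truncation. All cultures were kept on gelatin in GMEM with LIF, and per the labels spent 24 or 72 h in serum-free ESGRO medium with LIF before collection, while the single-cell methods of the study give another length. The 4 samples are held in 1 matrix of 10x Genomics 3′ counts of unique molecular identifiers (UMIs, single captured RNA molecules), in which a barcode carries a library number from 1 to 4 and no label ties that number to a sample. Libraries are therefore named by number, Srrm2 hKO and WT were not set against each other, and no p-value is given.

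Cells were kept when they passed depth limits of their own library and had at most 10.0% of UMIs from the 13 mitochondrially encoded (mt-) genes. This left 8118, 8514, 7893 and 7464 cells in libraries 1 to 4, with median UMI counts of 18378, 21898, 19405 and 21438. Srrm2 itself was at 387, 533, 238 and 356 UMIs per 1000000 UMIs (CPM), so every library expressed it. Summed over each marker list, naive pluripotency markers ranged from 931 to 1930 CPM, formative markers from 798 to 1693, keratin and contractile genes from 212 to 1419, trophectoderm markers from 28.0 to 51.6, fibroblast markers from 0.54 to 10.4, primitive endoderm markers from 1.05 to 4.62 and two-cell-like markers from 0.17 to 0.92. Library 3 stood apart in keratin and contractile genes, and 105 barcode sequences occurred among the kept cells of more than 1 library. The 95% intervals below are exact and cover counting error only, since the UMIs of 1 library are not replicates, and in summed counts fewer expressing cells and less RNA per cell cannot be told apart.

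ATF4 binds DNA together with a C/EBP protein at short composite elements, and the promoters of the 7 genes were searched for the letters of such elements. Windows of 250 bases before the RefSeq start (GRCm38.p6) were found for 7 of 7 genes and searched on both strands for TGATGNAA, TGACGNAA and the palindrome TGACGTCA. Only the Chac1 and Asns windows held a match. Chac1 held TGATGNAA on the opposite strand, 193 to 186 bases before its RefSeq start, and TGACGNAA 250 to 243 bases before it, while Asns held TGATGNAA 23 to 16 bases before its RefSeq start, a stretch inside the gene as GENCODE vM21 draws it. Of all 32817 mouse windows, 3.45% held TGATGNAA, 1.38% held TGACGNAA, 1.55% held TGACGTCA and 4.77% held either of the first pair. The sequences of Chac1 (chr2:119350992-119351228, plus strand), of the Asns match with its flanks (chr6:7693215-7693242, minus strand) and of Ddit3 (chr10:127290543-127290773, plus strand), the member with the widest range between libraries and no match, are shown with the matches in capitals.
Chac1: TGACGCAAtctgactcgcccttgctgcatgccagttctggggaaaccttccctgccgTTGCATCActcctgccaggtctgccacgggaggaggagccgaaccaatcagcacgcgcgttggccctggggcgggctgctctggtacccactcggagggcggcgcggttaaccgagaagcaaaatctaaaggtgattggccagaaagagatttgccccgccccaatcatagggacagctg
Asns: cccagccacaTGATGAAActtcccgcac
Ddit3: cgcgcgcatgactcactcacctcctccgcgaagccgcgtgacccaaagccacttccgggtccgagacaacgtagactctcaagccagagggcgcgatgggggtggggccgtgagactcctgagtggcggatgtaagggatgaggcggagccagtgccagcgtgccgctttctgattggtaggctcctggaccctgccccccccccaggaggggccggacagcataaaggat
A match is a description of letters and says nothing of binding, and no match says only that these letters are not in that window.

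The first question was how far the 7 genes differed between the 4 libraries. Ddit3, Asns, Chac1, Trib3 and Atf4 varied most, Ddit4 varied less, and Sesn2 hardly varied. Atf4, the transcription factor at the centre of the pathway (chromosome 15, 80255184-80257541, plus strand, GENCODE vM21 on GRCm38), was at 191, 88.7, 152 and 105 CPM in libraries 1 to 4. Libraries 1 and 3 were higher than 2 and 4, and no pair of intervals overlapped. The highest library was 2.16 times the lowest (95% interval 2.12 to 2.20).

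Ddit3 encodes CHOP, a transcription factor induced late in the response and linked to cell death (chromosome 10, 127290774-127296288, plus strand). It was at 27.03, 5.50, 19.3 and 6.46 CPM, a range of 4.92-fold (4.60 to 5.26). This was the widest range of the 7, and 95.8% of genes tested had a smaller one. A second identifier with the same symbol held 0 counts. The end of Ddit3 overlaps that of Mars on the opposite strand by 68 bases, and this kit keeps strand.

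Trib3 encodes a pseudokinase that dampens ATF4 activity (chromosome 2, 152337422-152344032, minus strand). Its levels were 32.0, 10.7, 23.5 and 13.2 CPM, in the same order of libraries as Atf4 and Ddit3. The range was 2.99-fold (2.84 to 3.14), which is also the median over the 7 genes.

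Among the effectors, Asns makes asparagine (chromosome 6, 7675169-7693254, minus strand) and was at 507, 154, 321 and 118 CPM. Library 4 rather than library 2 was lowest here, and the range was 4.31-fold (4.24 to 4.38). Chac1, a glutathione-degrading enzyme (chromosome 2, 119351229-119354381, plus strand), was at 22.7, 6.05, 13.9 and 13.7 CPM. Its intervals in libraries 3 and 4 overlapped, library 1 lay above and library 2 below them, and the range was 3.76-fold (3.52 to 4.01).

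Ddit4 and Sesn2 both encode inhibitors of mTORC1, the kinase complex that drives growth. Ddit4 (chromosome 10, 59949669-59951834, minus strand) was at 26.0, 21.3, 20.7 and 38.0 CPM, and was the only member with library 4 highest. Libraries 2 and 3 were not apart, and the range was 1.84-fold (1.77 to 1.92). Sesn2 (chromosome 4, 132492032-132510501, minus strand) was at 36.1, 34.2, 35.4 and 34.3 CPM. All neighbours in that order had overlapping intervals, the range was 1.06-fold (1.02 to 1.09), and only 0.861% of genes tested had a smaller one. Sesn2 shares its strand over part of its length with an annotated transcript, Gm12981, so some of its counts could be split.

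**Figure D1:**
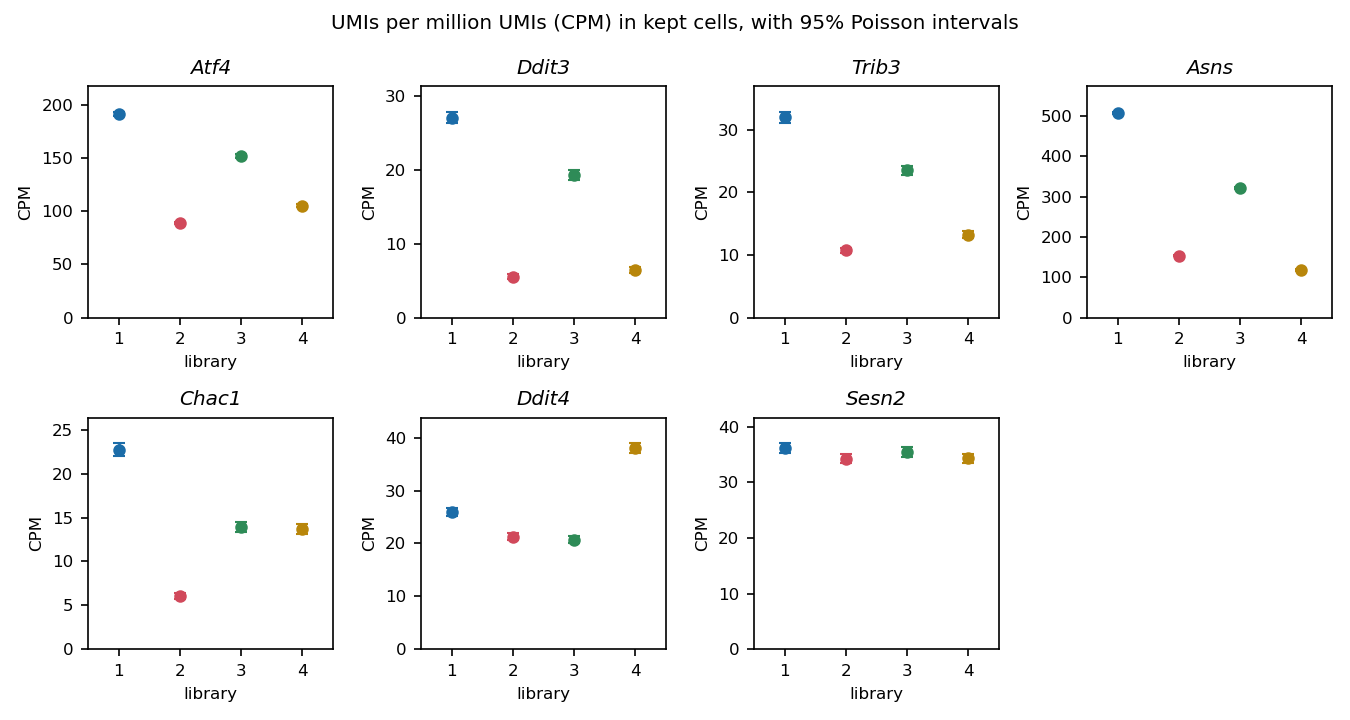
Levels of the 7 ISR genes in kept cells, in UMIs per 1000000 (CPM, y axis from 0), for each numbered library (x axis), with exact 95% Poisson intervals. Libraries 1 and 3 were highest for every gene except Ddit4, and Sesn2 stayed between 34.2 and 36.1 CPM.

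Of the 7 genes, 6 varied by at least 1.5-fold between the highest and lowest library, against 48.4% of the 13242 genes with at least 400 counts. The median range was 2.99-fold for the members and 1.48-fold for all genes tested. A range of at least 1.5-fold with libraries 1 and 3 the highest pair, a pattern picked out after the levels had been seen, held for 5 of 7 members and for 12.7% of genes. Libraries 1 and 3 were the highest pair for 6 of 7 members at any fold, and for 24.9% of genes. Leaving out library 4 took Ddit4 under 1.5-fold, to 1.26. Without library 1 the ranges of Asns and Chac1 were 2.73 and 2.30, and without library 2 that of Chac1 was 1.66.

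Several properties of the libraries ran alongside these levels. The median mt- share of kept cells was 5.40%, 4.10%, 4.51% and 3.51%, the same order as Asns, and the median UMI count ran in the reverse order to Atf4, Ddit3 and Trib3. Naive marker sums were 1930, 1575, 1402 and 931 CPM and so followed another order. Within barcodes of good depth and 4 to 6% mt- share the library order was as in all cells for Atf4 (197, 80.3, 151 and 89.3 per 1000000 UMIs outside mt- genes), Ddit3 (27.4, 3.57, 17.3 and 3.76) and Asns (543, 136, 330 and 99.0). What part depth, the marker lists or Srrm2 have in the order was not tested.

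The wider pathway was described through 12 lists holding 103 genes. At the top of it, the eIF2 kinases and their regulators varied little. None of 9 reached a 1.5-fold range, where 48.4% of all genes did. The largest was 1.46-fold, for Eif2ak2 (PKR, which senses viral RNA), at 17.5, 14.1, 19.2 and 13.2 CPM. Eif2ak3 (PERK, the sensor of the ER) was at 5.38, 6.99, 5.20 and 6.50 CPM. Eif2ak4 (GCN2, the sensor of uncharged tRNA) was at 13.2, 15.6, 13.2 and 15.9 CPM.

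Transcription factors that act with ATF4 varied more widely. All 5 passed 1.5-fold, where 48.4% of all genes did. Of these, 4 had libraries 1 and 3 highest, and 12.7% of all genes passed with that pair. Nupr1, a stress-induced chromatin protein, was at 178, 15.1, 73.2 and 11.5 CPM, a range of 15.5-fold (14.8 to 16.2). Atf5 varied 2.70-fold and Cebpb 2.30-fold, and Cebpg was just past the limit at 34.0, 22.6, 32.7 and 26.8 CPM. Atf3 was the exception, with libraries 3 and 4 highest at 5.77 and 5.42 CPM against 1.65 and 0.86.

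Most amino acid enzymes had the same highest pair as most members. Libraries 1 and 3 were highest with a range of at least 1.5-fold for 8 of 9, where 12.7% of all genes had that pattern. The pattern was picked after the levels had been seen, and the list with earlier results of these data known. Cth, which makes cysteine, was at 145, 44.2, 103 and 40.6 CPM (3.57-fold), and Pycr1, a proline enzyme, at 36.4, 13.6, 24.1 and 11.9 (3.06-fold). Aldh1l2 (2.56-fold), Psph (2.09), Shmt2 (2.03), Mthfd2 (1.96), Psat1 (1.77) and Aldh18a1 (1.70) had the same highest pair. Phgdh, the first enzyme of serine synthesis, did not, at 119, 108, 119 and 135 CPM.

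Charging and uptake of amino acids split. Of 12 tRNA synthetase and export genes, 6 passed 1.5-fold, each with libraries 1 and 3 highest, namely Cars (2.03-fold), Mars (1.57), Yars (1.56), Sars (1.56), Aars (1.54) and Nars (1.52). Of all genes a near share, 48.4%, passed, and 12.7% passed with that highest pair. Of 8 transporters, 7 passed and 4 had that highest pair. These were Slc6a9 (2.17-fold), Slc1a4 (1.83), Slc3a2 (1.79) and Slc7a1 (1.70). Slc38a2, a glutamine carrier, ran the other way at 101, 201, 101 and 202 CPM, and Slc7a11 (2.20-fold, library 4 highest) and Slc7a5 (1.78-fold, library 2 highest) had other orders.

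Among 10 other ATF4 and CHOP targets, 4 passed, where 48.4% of all genes did, and all 4 had libraries 1 and 3 highest. Gdf15, a secreted stress hormone, was at 15.5, 2.93, 5.93 and 1.97 CPM (7.84-fold). Vldlr varied 3.79-fold, Stc2 2.03-fold and Gpt2 1.94-fold. For the lists of neighbouring stress pathways, each too short to set apart from the 12.7% of all genes with that pattern, the counts with a range of at least 1.5-fold and libraries 1 and 3 highest were 1 of 15 ER chaperone genes (Herpud1), 0 of 6 mitochondrial chaperones, 0 of 6 heat shock genes, 1 of 8 p53 targets (Cdkn1a), 1 of 9 hypoxia genes (Vegfa) and 0 of 6 immediate early genes.

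The genes of these lists that passed 1.5-fold were mostly highest in library 2 or 4, but the share of all genes with that order was not counted. Past 1.5-fold were 7 of 15 ER chaperone genes, 2 of 6 mitochondrial chaperones and 2 of 6 heat shock genes. So were 5 of 8 p53 targets, 8 of 9 hypoxia genes and 5 of 6 immediate early genes, against 48.4% of all genes. Those of the ER list, apart from Herpud1, were Pdia4 (1.81-fold), Manf (1.59), Xbp1 (1.58), Edem1 (1.57), Hspa5 (1.53) and Hyou1 (2.05), with library 1 lowest for all but Xbp1. Hspd1 (1.58) and Htra2 (1.60) among mitochondrial chaperones, and Hspa1a (2.59) and Hspa1b (2.22) among heat shock genes, were also lowest in library 1. So were the p53 targets Mdm2, Ccng1, Phlda3 and Zmat3 (1.54 to 1.93). Of the hypoxia genes, Adm (6.60), Egln3 (3.81), Slc2a1 (2.97), Ldha (2.26), Bnip3 (1.77) and Pdk1 (1.55) were highest in library 4, and Ndrg1 (1.86) in library 1. Fos, Fosb, Jun, Junb and Egr1, which respond within minutes to many stimuli, varied from 2.01 to 6.48-fold with library 3 or 4 highest.

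The second question was how the genes stood across cell states within a library. Cells fell into 5 clusters that each held at least 2% of kept cells. Clusters 1, 2 and 4 carried the higher sums of naive markers (1555 to 2044 CPM) and clusters 3 and 5 the lower (350 to 553). Cluster 3 carried the highest formative sums (2176 and 2360 CPM), and cluster 5 the highest sums of keratin and contractile genes (1473 to 10572). Libraries 1 and 3 lay in clusters 1 and 5, library 2 in clusters 2 and 3, and library 4 in clusters 3 and 4 with few cells in 2 and 5. The clusters were made from these cells, with 6 of the 7 members (not Sesn2) among the 2000 genes used, so the values are a description.

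Ranked by their smallest fold between clusters over the libraries, Ddit4 and Chac1 differed most. In a single library another member could differ more, as Ddit3 did in library 4 (6.76-fold between clusters 4 and 5). Ddit4 was at 20.1 and 95.4 CPM in clusters 1 and 5 of library 1, at 16.9 and 36.6 in clusters 2 and 3 of library 2, and at 9.55 and 43.6 in clusters 1 and 5 of library 3. Library 4 had it at 20.04 in cluster 4, 45.4 in cluster 2, 52.7 in cluster 3 and 66.2 in cluster 5. Within every library it was thus lowest in a cluster of high naive sums. Chac1 was at 21.4 and 38.8 CPM in clusters 1 and 5 of library 1, at 5.21 and 9.36 in clusters 2 and 3 of library 2, and at 10.2 and 21.7 in clusters 1 and 5 of library 3. In library 4 its levels were 4.70, 21.8, 5.01 and 19.1 in clusters 2 to 5. The low values for Chac1 were again those of clusters 1, 2 and 4.

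Both genes reached at least 1.5-fold between the highest and lowest cluster in every library, which 16.9% of the 10616 genes tested did. The smallest such fold over libraries was 2.16 for Ddit4, 1.80 for Chac1 and 1.27 for Atf4, with 1.11 for the median member and 1.12 for the median gene. Clusters 3 and 5 also had the lower median mt- share within each library, for instance 3.97% against 5.46% in library 1, and its part was not tested.

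Atf4 followed the same direction at smaller size. It was at 187 and 239 CPM in clusters 1 and 5 of library 1, at 82.1 and 113 in clusters 2 and 3 of library 2, at 138 and 181 in clusters 1 and 5 of library 3, and at 68.6, 138, 69.0 and 136 in clusters 2 to 5 of library 4. Asns went its own way. It was 513 and 437 CPM in clusters 1 and 5 of library 1 and 324 and 317 in those of library 3, but 170 in cluster 2 against 91.4 in cluster 3 of library 2. Library 4 had Asns at 177, 105, 127 and 199 in clusters 2 to 5. Cluster 5 was highest there, on 79 cells, but the interval of its fold over cluster 2 (1.12, 0.984 to 1.28) included 1. In libraries 1 and 3 cluster 5 was at 0.851 and 0.979 times the level in cluster 1.

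Ddit3 had no common direction. Its levels were 27.3 and 24.0 CPM in clusters 1 and 5 of library 1 and 18.7 and 20.1 in those of library 3. In library 2 they were 5.61 and 3.69 in clusters 2 and 3, and in library 4 they were 22.2, 5.84, 4.64 and 31.4 in clusters 2 to 5. The high values of library 4 belonged to its smallest clusters, of 168 and 79 cells, and rested on 71 and 64 counts. Trib3 ranged from 9.83 to 41.5 CPM and Sesn2 from 31.6 to 43.1 CPM over all 10 pairs of library and cluster.

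Cluster 1 held many cells of both library 1 (7649) and library 3 (5783), and allowed a comparison within 1 cluster. All 7 genes were lower in library 3 there, from 0.475 times the level in library 1 for Ddit4 (0.443 to 0.508) and Chac1 (0.444 to 0.508) to 0.918 times for Sesn2 (0.881 to 0.957). Asns was at 0.631 times and Atf4 at 0.738 times. In cluster 3, shared by libraries 2 and 4, the members were 1.04 (Sesn2, 0.974 to 1.10) to 2.33 times (Chac1, 2.09 to 2.61) as high in library 4. Asns, lowest in library 4 over all kept cells, was 1.15 times (1.10 to 1.19) as high there as in library 2 within cluster 3. Within cluster 2 it was 1.04 times (0.960 to 1.14) as high in library 4. The part of the cluster mix in the library order of Asns was not tested.

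**Figure D2:**
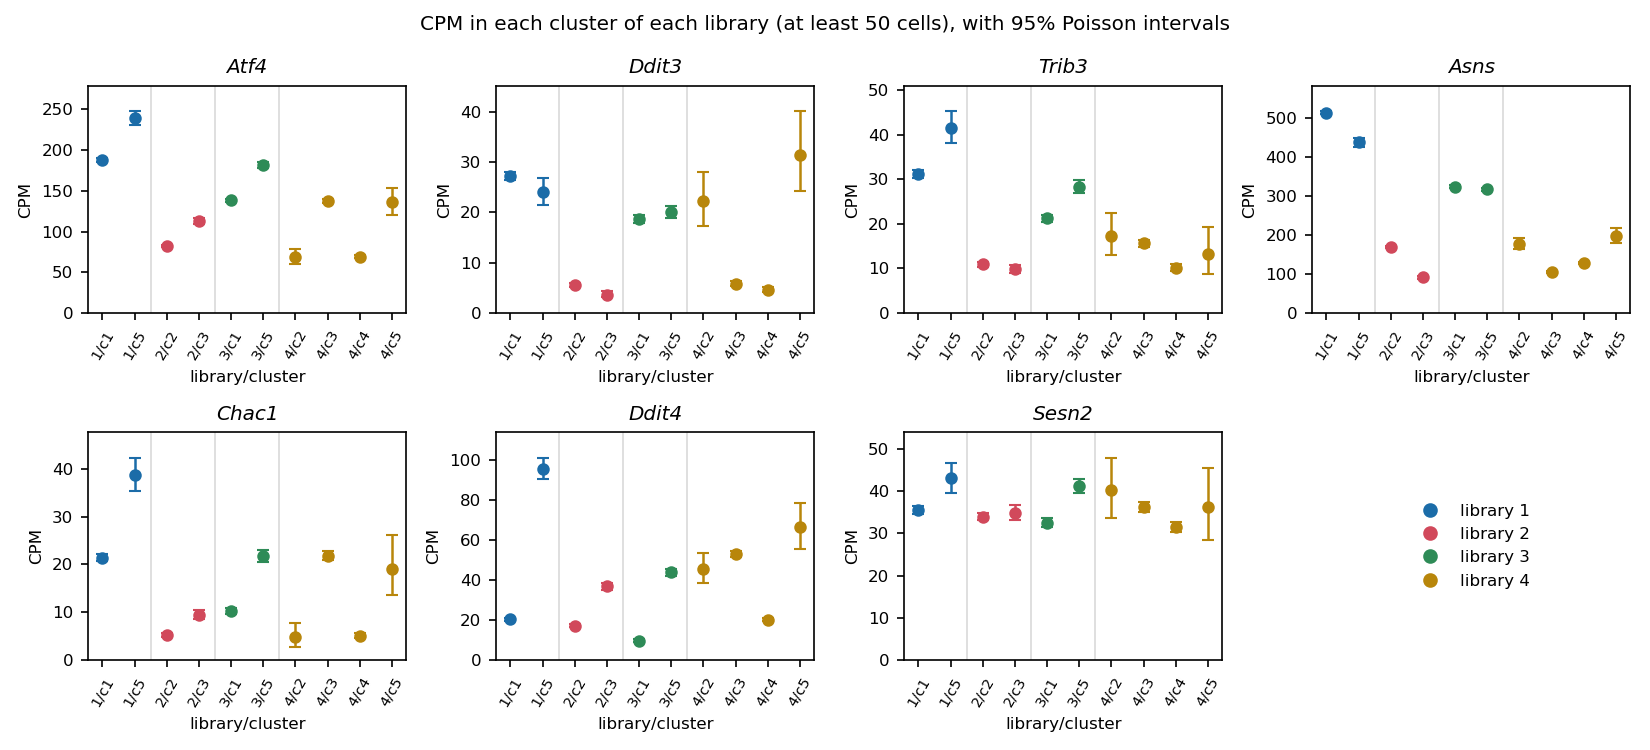
Levels of the 7 genes in UMIs per 1000000 (CPM, y axis from 0) in each pair of library and cluster with at least 50 cells (x axis, library/cluster), with exact 95% Poisson intervals. Ddit4 ran from 9.55 CPM in cluster 1 of library 3 to 95.4 CPM in cluster 5 of library 1, while Sesn2 kept between 31.6 and 43.1 CPM.

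The third question was whether barcodes rich in mitochondrial RNA, which are commonly removed as damaged cells, differed in the 7 genes. The limit of 10.0% set apart 1028, 2441, 1191 and 1870 barcodes in libraries 1 to 4, with median UMI counts of 2602, 3636, 3152 and 2968. They were shallow. Only 796 of the 6530 passed the depth limits. Levels in what follows are per 1000000 UMIs outside the 13 mt- genes, so that a larger mt- share does not by itself lower every other gene. A gene was called when its fold over kept cells was at least 1.5 in the same direction in each of the 4 libraries.

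No member was called higher, against 21.4% of genes (2298 of 10731), and none lower, against 1.33% (143). The median fold of the members was 0.976, 1.04, 1.03 and 0.996 in libraries 1 to 4. Over all genes tested it was 1.29, 1.22, 1.26 and 1.26.

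Atf4 was at 205, 95.9, 164 and 105 in high-mitochondrial barcodes and at 202, 92.5, 159 and 109 in kept cells. Every fold interval of Atf4 included 1. Ddit3 was at 27.9, 4.52, 22.6 and 7.10 against 28.5, 5.73, 20.1 and 6.70, and Trib3 at 33.0, 11.7, 20.5 and 14.4 against 33.8, 11.2, 24.6 and 13.7. For both genes, too, every interval of the fold included 1, with bounds from 0.550 to 1.47. Between barcodes of high and low mt- share that were both under the depth limits, Ddit3 was lower in each library. Its folds there were 0.492, 0.334, 0.773 and 0.428, and only the interval of library 3 (0.539 to 1.11) included 1. Those of Trib3 all included 1. Shallow barcodes of low mt- share themselves had Ddit3 at 2.03, 2.83, 1.59 and 2.35 times kept cells. Asns was at 585, 167, 375 and 121 against 536, 160, 336 and 122, so that its folds lay between 0.996 and 1.12. The intervals of libraries 1 (1.04 to 1.15) and 3 (1.05 to 1.18) lay above 1. Between shallow barcodes of high and low mt- share Asns folds were 1.26, 0.819, 1.44 and 0.866, with no common direction. Only the interval of library 4 (0.733 to 1.03) included 1 there.

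Chac1 was lower in each library. It was at 15.4, 5.27, 7.74 and 7.10 in high-mitochondrial barcodes against 24.0, 6.31, 14.5 and 14.2 in kept cells. Its folds were 0.641 (0.461 to 0.868), 0.835 (0.599 to 1.14), 0.533 (0.347 to 0.783) and 0.50 (0.351 to 0.692), and library 2 kept it from the call. Keratin and contractile genes, highest in cluster 5, had median folds of 0.984, 0.392, 0.140 and 0.331 in the same comparison. What part the mix of cell states has in the Chac1 folds was not tested. Between shallow barcodes of high and low mt- share Chac1 had no common direction, with folds of 1.31, 1.16, 0.797 and 0.612 whose intervals all included 1. These shallow classes were closer in depth, but not equal. Their median UMI counts were 2447, 3195.5, 2917.5 and 2633 at high mt- share and 3427, 1235, 3516 and 1357 at low. The part of depth in the folds of any gene between them was not tested. For Chac1, shallow barcodes of low mt- share were themselves below kept cells, at 0.543, 0.893, 0.633 and 0.843 times. Sesn2 was higher in each library, at 48.4, 38.8, 52.1 and 48.0 against 38.1, 35.7, 37.0 and 35.5. Its folds were 1.27, 1.09, 1.41 and 1.35, and 38.6% to 61.0% of genes had a smaller one. The interval of library 2 (0.967 to 1.22) included 1. Between shallow barcodes of high and low mt- share Sesn2 folds were 1.31, 0.972, 1.19 and 1.03, and all their intervals included 1. Shallow barcodes of low mt- share had Sesn2 at 1.06, 1.26, 1.23 and 1.36 times kept cells. Ddit4 was at 23.8, 22.5, 13.4 and 39.0 against 27.4, 22.2, 21.6 and 39.4, and stood apart in library 3 alone (0.620, 0.451 to 0.831). Between shallow barcodes of high and low mt- share its folds were 0.464, 0.624, 0.470 and 0.963. Only the interval of library 4 (0.722 to 1.29) included 1.

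Depth was then held closer, though not equal. High-mitochondrial barcodes of good depth had median UMI counts of 13727, 7767, 8847 and 6989, still below those of kept cells. Among the 796 high-mitochondrial barcodes of good depth 0 of 7 members were called higher, where 2.94% of 8066 genes were, and 1 of 7 lower, where 0.174% (14 genes) were. The member called lower was Chac1, with folds of 0.456, 0.455, 0.628 and 0.470. These rest on 8, 8, 7 and 12 counts, and the interval of library 3 (0.252 to 1.30) included 1. The median fold of keratin and contractile genes was 1.73, 0.328, 0.0731 and 0.337 here, and the part of cell states was not tested. Atf4 folds were 0.956, 1.00, 1.10 and 0.875, and all their intervals included 1. Sesn2 folds were 0.934, 0.825, 1.23 and 1.252, on 26, 82, 35 and 80 counts. All their intervals included 1, so no direction was shown.

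**Figure D3:**
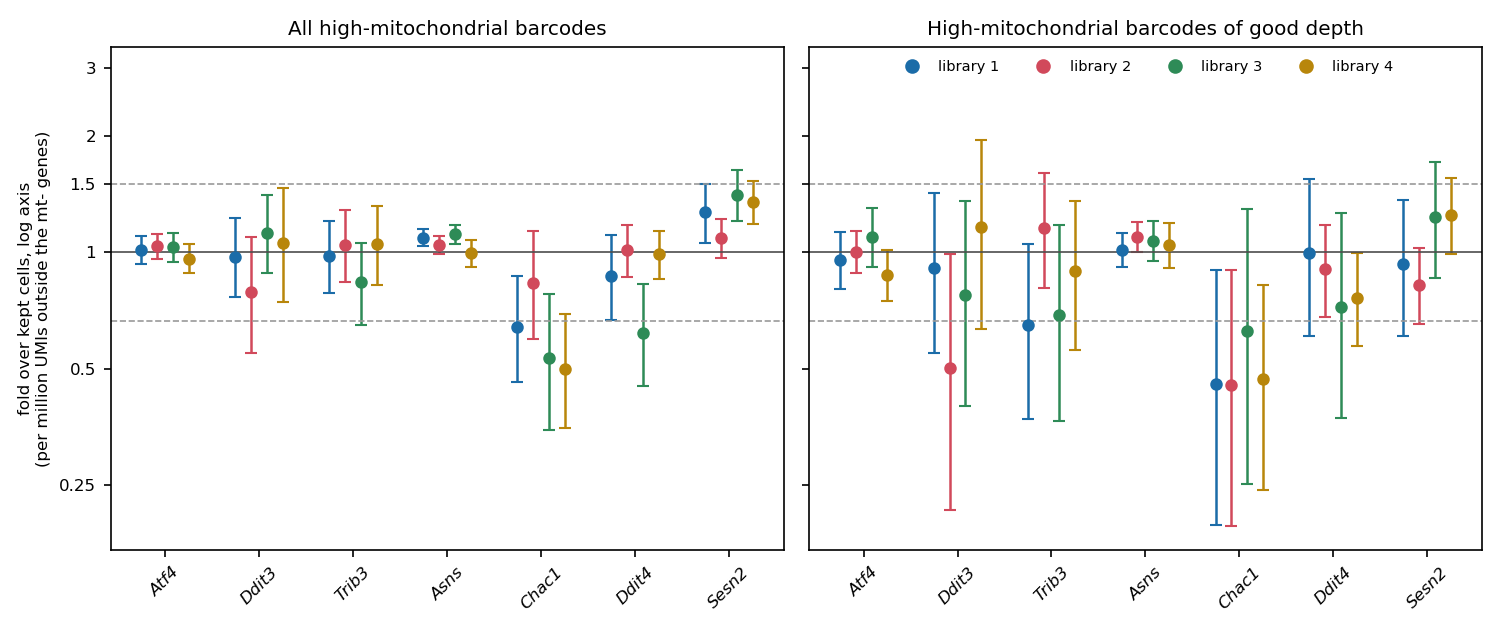
Fold of high-mitochondrial barcodes over kept cells for each gene and library (log axis, per 1000000 UMIs outside mt- genes), with exact 95% intervals, for all such barcodes (left) and those of good depth (right). Dashed lines mark the 1.5-fold limits. Chac1 lay below 1 in all 4 libraries on both sides, and Atf4 lay between 0.875 and 1.10.

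Lists of the wider pathway were counted in high-mitochondrial barcodes in the same way, to be read against the 21.4% of all genes called higher. Amino acid transporters were higher in every library for 6 of 7 tested. Slc38a2 was at 285, 601, 319 and 723 against 106, 210, 105 and 209 (2.68- to 3.45-fold), and Slc7a3, an arginine carrier, at 206, 246, 211 and 262 against 90.3, 93.3, 75.8 and 86.1. Slc1a4, Slc3a2, Slc6a9 and Slc7a5 were the others. Of the kinase list 2 of 9 were higher, a share near that of all genes. Eif2ak3 was at 17.2, 17.2, 15.5 and 17.3 against 5.68, 7.29, 5.44 and 6.73, and Ppp1r15b, a subunit of the phosphatase that reverses eIF2 phosphorylation, was 2.17 to 2.79 times as high.

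ER chaperone genes, which answer to the ATF6 and XBP1 arms of the unfolded protein response, were higher for 9 of 15. Hspa5 (BiP, the main ER chaperone) was 3.01, 3.01, 2.91 and 3.10 times as high. Hsp90b1, Pdia4, Pdia3, Calr, Dnajb11, Dnajc3, Hyou1 and Edem1 were the others. Against this, 0 of 8 amino acid synthesis genes and 0 of 4 partner factors tested were called. The remaining counts, most of them near or under the share of all genes, were 1 of 12 for tRNA synthetases (Mars), 2 of 10 for other ATF4 and CHOP targets (Ero1l and Tnfrsf10b), 2 of 6 for mitochondrial chaperones (Lonp1 and Htra2), 2 of 8 for p53 targets (Trp53inp1 and Zmat3) and 2 of 8 for hypoxia genes (Slc2a1 and Pdk1). In the heat shock list Dnajb1 was lower, and 0 of 5 immediate early genes were called. At good depth, where 2.94% of genes were called higher, the call remained for 3 of the 6 transporters tested (Slc7a3, Slc1a4 and Slc38a2). It also remained for 1 of 15 ER chaperones (Edem1) and 1 of 8 of the kinase list (Ppp1r15b). The others that kept it were 1 of 8 other ATF4 and CHOP targets (Ero1l) and 1 of 7 hypoxia genes (Slc2a1). Between shallow barcodes of high and low mt- share, 2.99% of genes were called higher. Among them were 1 of 6 transporters (Slc38a2), 4 of 15 ER chaperones and 2 of 9 of the kinase list. So were 1 of 10 other ATF4 and CHOP targets (Ero1l) and 1 of 8 hypoxia genes (Slc2a1). Shallow barcodes of low mt- share had a median transporter fold over kept cells of 0.881, 2.04, 1.05 and 1.97.

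Barcodes of good depth were last divided by their mt- share, and the lowest bin stood out for Ddit3. In barcodes of 0 to 2% it was at 70.3, 29.9, 50.1 and 20.7 per 1000000 in libraries 1 to 4, and in those of 2 to 4% at 31.4, 5.55, 23.3 and 5.25. The lowest bin was higher in every library and no intervals overlapped. The folds were 2.23 (1.85 to 2.69), 5.38 (4.62 to 6.27), 2.15 (1.88 to 2.46) and 3.94 (3.45 to 4.49), and rest on 138, 268, 264 and 434 counts in 102, 411, 239 and 865 barcodes. Above 4% Ddit3 changed less, with 27.4, 3.57, 17.3 and 3.76 at 4 to 6%.

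This pair of bins was chosen after the levels had been seen. Over all genes, 0.0287% (3 of 10461: Aqp3, Ddit3 and Perp) were at least 1.5 times as high at 0 to 2% as at 2 to 4% in every library, and 1 of 7 members was. Within the largest cluster of each library Ddit3 was 2.36, 5.08, 2.96 and 1.96 times as high and was the only gene called of 9625. The median UMI counts of the bins were close, at 18466, 21615, 20139 and 21748 against 20037, 22464, 21170 and 21913. The share of cells with a Ddit3 UMI, with every cell thinned to 5000 UMIs, was 28.4%, 10.2%, 21.8% and 9.83% in the lowest bin against 13.1%, 2.68%, 9.92% and 2.46% in the next.

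The other members moved less and not alike in the lowest bin. Trib3 folds were 1.30, 2.32, 1.16 and 1.46, Asns folds 1.04, 1.68, 1.10 and 1.42, and Atf4 folds 1.06, 1.47, 1.10 and 1.16. All 3 were largest in library 2. Within the largest cluster of each library Trib3 folds were 1.55, 2.36, 1.59 and 1.27, and Atf4 folds 1.15, 1.51, 1.24 and 1.06. Every interval of these lay above 1. Asns folds there were 1.06, 1.66, 1.23 and 1.32, and the interval of library 1 (0.983 to 1.13) included 1. Chac1, Ddit4 and Sesn2 had no common direction within those clusters. In all barcodes of good depth, Chac1 folds were 0.765, 2.46, 0.974 and 1.41, also with no common direction. Ddit4 folds in all these barcodes were 1.17, 1.35, 1.36 and 1.18, above 1 in each library. Only the interval of library 1 (0.943 to 1.43) included 1. Sesn2 folds in all these barcodes were 1.14, 1.15, 1.01 and 0.936. From 2 to 4% up to 10 to 20%, Chac1 went from 26.6, 8.33, 18.7 and 15.8 per 1000000 down to 11.2, 3.06, 9.42 and 6.06. The upper bin rests on 8, 8, 7 and 10 counts and holds most of the high-mitochondrial barcodes of good depth described above. Its median UMI counts were lower, at 14065, 7789, 8962 and 7130, and the part of depth was not tested.

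Ddit3 was also higher in shallow barcodes of low mt- share than in kept cells. This class, at most 10.0% mt- UMIs but under the depth limits, had Ddit3 at 58.0, 16.2, 32.0 and 15.7 against 28.5, 5.73, 20.1 and 6.70 in kept cells. It was the 1 member called higher, in a comparison added afterwards that called 1.23% of genes (114 of 9286). The counts behind it were 80, 23, 66 and 25. Among these shallow barcodes, Ddit3 was at 153, 27.3, 56.1 and 22.5 at 0 to 2% mt- share against 20.1, 22.4, 34.1 and 4.02 at 2 to 4%. The intervals of these bins overlapped in libraries 2, 3 and 4, and the upper bin rests on 3, 6, 17 and 1 counts. Their median UMI counts differed, at 1073.5, 1018, 1115 and 1151 against 3252, 1209, 4009 and 1586, and the part of depth was not tested.

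**Figure D4:**
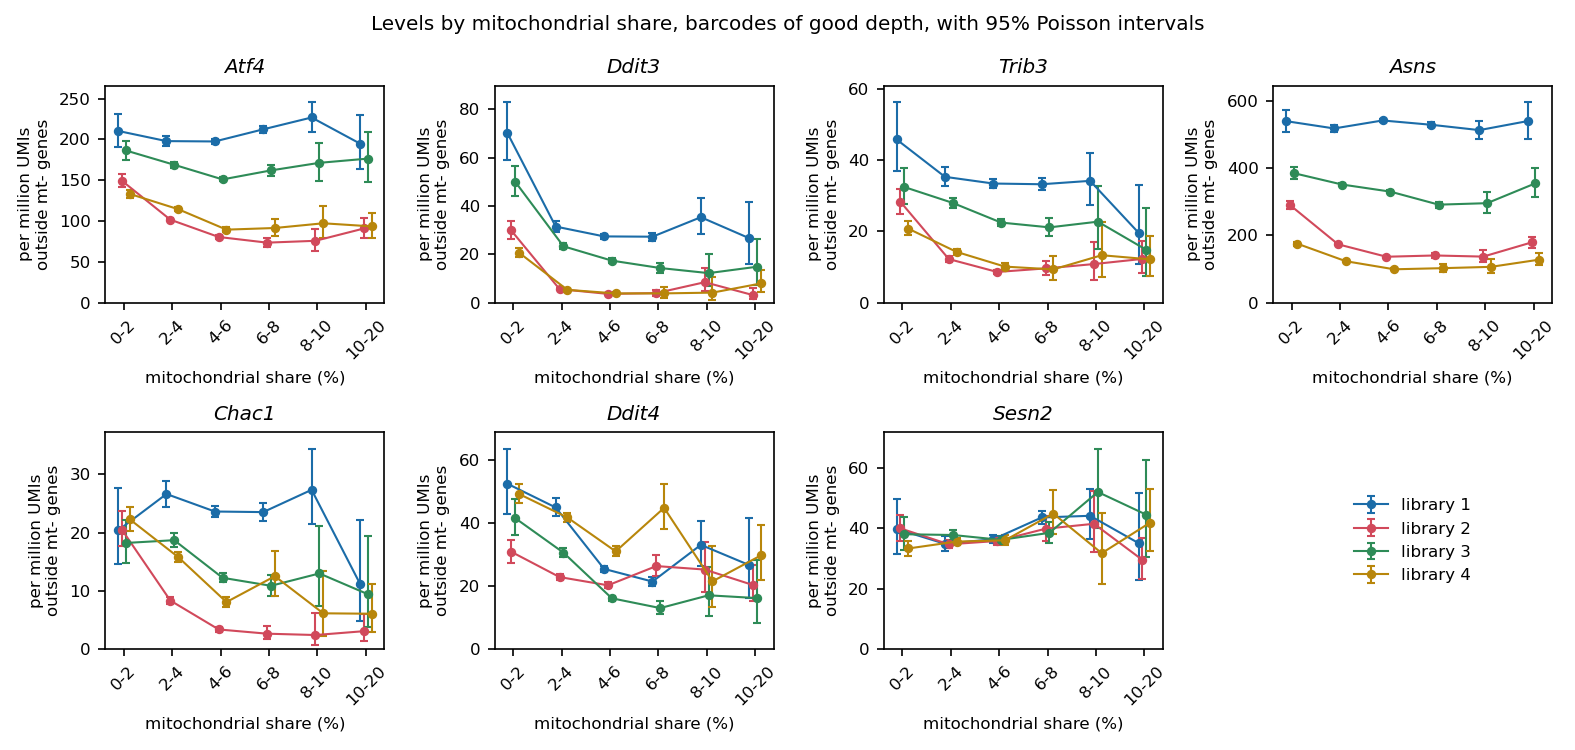
Levels of the 7 genes in barcodes of good depth (y axis from 0, per 1000000 UMIs outside mt- genes) by mt- share of the barcode (x axis, %), 1 line per library with exact 95% Poisson intervals. Ddit3 was highest at 0 to 2% in all 4 libraries, at 20.7 to 70.3, and Asns kept the order of the libraries 1 and 3 above 2 and 4 in every bin.

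The last question was in how many cells the genes were seen, and whether in the same ones. With every cell thinned to 5000 UMIs, Asns had a UMI in 88.5%, 48.3%, 73.1% and 41.2% of kept cells of libraries 1 to 4 and Atf4 in 57.0%, 32.8%, 48.1% and 35.6%. Ddit3 was seen in 12.5%, 2.56%, 8.91% and 3.18%. Chac1 was seen in 9.47%, 2.50%, 5.69% and 5.96%, and Trib3 in 14.4%, 4.59%, 10.4% and 6.55%. The order of the libraries at this fixed depth was that of the CPM for all of these but Chac1, whose libraries 3 and 4 were not apart. Sesn2 was seen in 15.05% to 16.3% and Ddit4 in 8.45% to 16.0% of cells. No cell type known to lack these transcripts was present, so the background from free RNA was not tested.

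For each of the 21 pairs of genes, the number of cells with both was divided by the number that the product of the separate shares gives. The ratio was above 1 in all 4 libraries for 15 pairs and below 1 in all 4 for 0. This count was not made for pairs of other genes, so it has no share to be read against. Ranked by its smallest ratio over libraries, the pair of Trib3 and Chac1 came first, with 154, 36, 67 and 59 cells and ratios of 1.39 (1.18 to 1.62), 3.68 (2.58 to 5.09), 1.44 (1.12 to 1.82) and 2.02 (1.54 to 2.61). The ratios of Atf4 and Chac1 were 1.17, 1.83, 1.31 and 1.67, and those of Atf4 and Trib3 1.11, 1.51, 1.28 and 1.49. Atf4 and Ddit3 met less regularly, at 1.06, 1.31, 0.937 and 1.35. Leaving out Atf4 and Asns, 3 or more of the remaining 5 genes were seen in 181, 29, 93 and 93 cells, where independent shares give 132, 17.9, 61.6 and 42.4. That count, too, was not made for other genes.

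**Figure D5:**
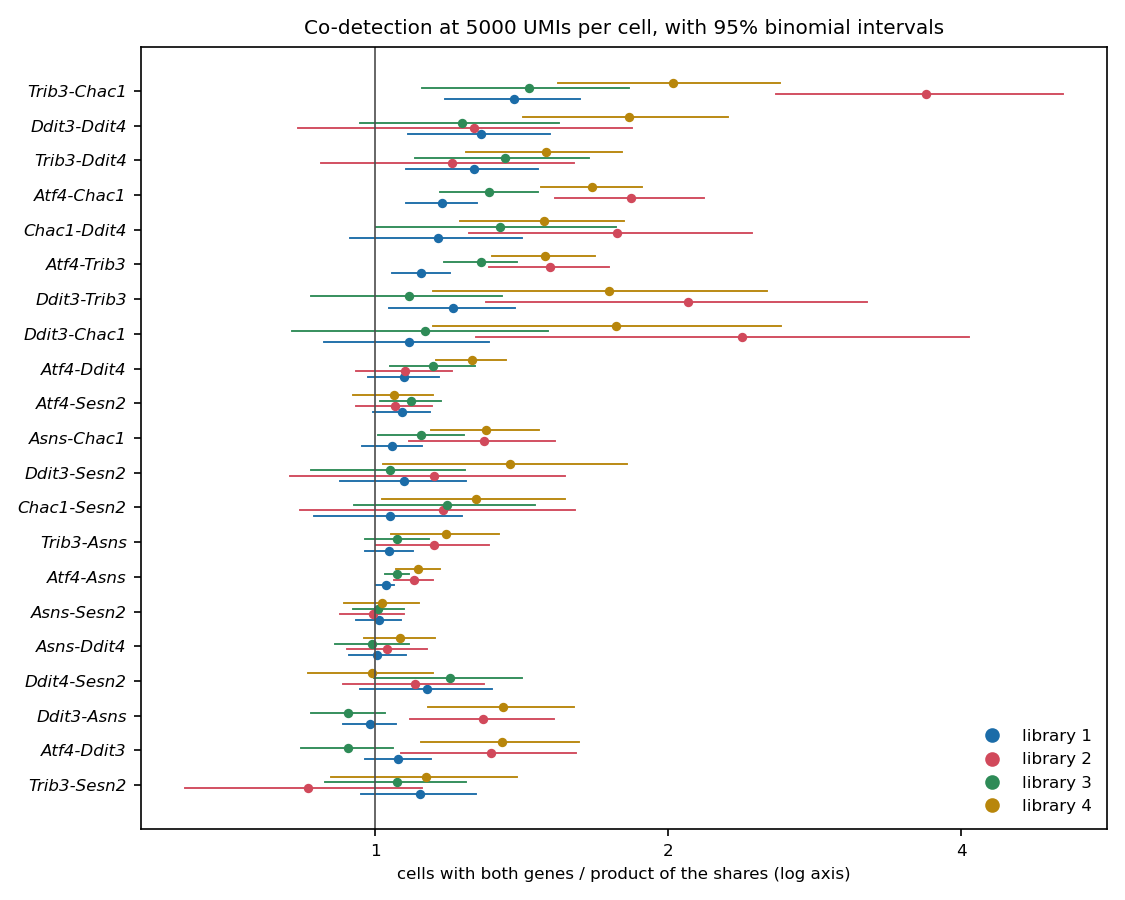
Cells with both genes of a pair divided by the number that their separate shares give (x axis, log scale), for the 21 pairs (y axis) at 5000 UMIs per cell, 1 point per library with exact 95% binomial intervals. Trib3 with Chac1 stood farthest right, at 1.39 to 3.68, and Trib3 with Sesn2 lay on both sides of 1.

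Genes outside the 7 were ranked by the smallest correlation, over libraries, with the mean scaled level of the 7 across kept cells. The 10 most alike of 6455 genes were Mthfd2 (smallest r = 0.118), Nars (0.115), Psat1 (0.106), Sars (0.0845), Gars (0.0819), Cars (0.0803), Pck2 (0.0775), Eif4ebp1 (0.0771), Lars (0.0767) and Phgdh (0.0650). These correlations were weak, as single-cell counts at 5000 UMIs are sparse, and cells of 1 library share it. Of the 10, 7 belonged to the lists of amino acid synthesis and tRNA synthetase genes. Pck2, a mitochondrial enzyme of phosphoenolpyruvate synthesis, Eif4ebp1, a translation repressor, and Lars, the leucyl-tRNA synthetase, were on no list. Pck2 was at 60.9, 21.0, 33.9 and 22.8 CPM, the library order of Atf4. Each member against the mean of the other 6 had smallest r values of 0.130 for Atf4, 0.0929 for Trib3, 0.0788 for Chac1, 0.0693 for Asns, 0.0473 for Ddit4, 0.0137 for Sesn2 and 0.00495 for Ddit3.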

How the data were processed

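The authors mapped the 4 libraries to mm10 and joined them with default aggregation, which equalises depth, in Cell Ranger (6.1.2 per the submitters' processing notes). The deposited matrix holds UMI counts, used as deposited. Total UMIs of kept cells per library were 166839268 to 200180473, so that 3 counts stand for 0.0150 to 0.0180 CPM. Depth limits were each library's mean less 1 SD of UMIs and genes. No doublet caller was run, and cells above 2 times the median UMI count were left out as an alternative.

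Levels are summed counts per 1000000. Cells were scaled to 10000 UMIs, and the 2000 most variable genes, 20 components, 20 neighbours and Leiden clustering (leidenalg 0.10.2, resolution 0.2, no batch correction) gave the clusters. Python 3.11.15, numpy 2.4.6, scipy 1.17.1, scikit-learn 1.9.0 and R 4.3.3 were used. Intervals are exact Poisson, Clopper-Pearson or conditional binomial, at 95%. Range tests needed 400 counts in all, and fold tests an expected count of 5 in every library. Scripts were tested on simulated data.

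The planned edgeR test was not made, since no label maps libraries to samples. The members and lists were chosen with earlier results of these data known. Named genes were the members, list genes past 1.5-fold with up to 4 others per list, and the 10 most alike genes.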

Additional observations from a re-analysis of the deposited data

How the results depend on the processing

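No paired analysis was possible because no label ties a library number to a sample or replicate. Of 132 alternative values, 109 stayed within the limits set for the same result and 23 moved, and no called value reversed. A range of at least 1.5-fold between libraries held for 6 of 7 genes under every alternative except without library 4, where it held for 5, and between clusters for 2 of 7 in all. In high-mitochondrial barcodes the count of members lower rose from 0 to 1 (Chac1) with barcodes of good depth only, and leaving out 1 library at a time gave 0 to 1, with Chac1 called without library 2. Of 63 ranges of single genes 21 moved by more than counting error, mostly with median-of-ratios size factors (Ddit3 5.51, Trib3 3.34, Sesn2 1.22) or when a library was left out. The pairs met above 1 in every library numbered 10 at 2000 UMIs, 17 at 10000 and 20 without thinning, and 1 pair (Asns and Sesn2) was below 1 in every library at 2000. Ddit3 was called in the lowest bin of mt- share in each alternative run, for a comparison added after that bin had been seen. Without library 3 that comparison called 10 genes, without library 1 it called 9, and without clusters under 2% only Ddit3. The 10000 UMI thinning shared 9 of the 10 most alike genes. Single-gene counts under 20 in good-depth high-mitochondrial barcodes limit what can be seen of Ddit3, Trib3 and Chac1 there.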
